A study of Mus musculus with 6 samples.

Results

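Mouse epidermal keratinocytes that lacked both Ovol1 and Ovol2 by their labels were compared with keratinocytes labelled as lacking Ovol1 alone, on 4 of the 6 one-colour Affymetrix gene arrays of the series. The arrays were chosen by title: 2 were titled Ovol1/2 DKO and 2 were titled Ovol1 KO, and the remaining 2 are controls whose values are set beside them. The genotypes given are Ovol2flox/-;K14-Cre; Ovol1-/- for the double knockout (DKO), Ovol1-/- for the Ovol1 knockout, and Ovol2flox/+; Ovol1+/- or Ovol2flox/+;K14-Cre for the controls. By these labels both groups compared were null for Ovol1, and they differed in their Ovol2 alleles and in K14-Cre, which only the double knockout carried. All cells came from the skin of C57BL/6 embryos labelled female at E18.5, with 2 mice per array, were grown in culture for 2 to 5 days, and carry the note "no calcium". K14-Cre is driven by a keratin promoter of basal keratinocytes, so the floxed Ovol2 allele is lost in those cells and their progeny, whereas the null Ovol2 allele and the null Ovol1 alleles are present in every cell of the embryo. After 1 probe set was kept for each gene symbol, 19938 genes were compared. By the labels the groups differ in Ovol2 and not in Ovol1, whereas the signals measured for these genes, given below, differed for Ovol1 and did not pass for Ovol2.

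Ovol1 and Ovol2 encode related zinc finger transcription factors that bind DNA and act largely as repressors in epithelia. In the epidermis, basal cells attached to the basement membrane stop dividing, move up through spinous and granular layers and end as cornified cells that form the skin barrier, and calcium drives that programme in culture. Epithelial cells are held together by adherens junctions, desmosomes and tight junctions, and can lose these structures and gain a filament and matrix repertoire of mesenchymal cells, a shift called epithelial-mesenchymal transition (EMT) that transcription factors of the Zeb, Snai and Twist families can drive.

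Levels are given as log2(intensity + 16), replicate 1 before replicate 2, and differences are DKO minus labelled Ovol1 KO on that scale, which understates the change of dim genes. A level of 6.20, the highest array median among unnamed probe sets, is used as a mark for signal near background, and the median level of all genes was 7.56. Array medians lay between 103.3 and 109.8 intensity units, and 2 arrays per group limit the precision. Ovol1 itself went against a label: it read 10.75 and 9.80 on the arrays labelled Ovol1 KO, 9.64 and 9.95 on the control arrays, and 5.96 and 6.22 on the DKO arrays. It is unknown here if the probe set of either Ovol gene overlaps the deletion. The labels give both groups compared the same Ovol1 genotype, yet their Ovol1 signals differed, and the reason was not tested. The contrast may thus not be a difference in Ovol2 alone. The arrays are therefore called the arrays labelled Ovol1 KO, or labelled KO, throughout. Sex-linked genes also split these arrays: the Y-linked Eif2s3y read 13.80 on labelled KO replicate 1 and at most 5.14 elsewhere, and Xist read 4.54 there against 10.99 on labelled KO replicate 2 and 11.43 and 11.28 on the DKO arrays. Control replicate 1 also lacked Xist signal, at 4.43 against 11.24 on replicate 2. Labelled KO replicate 1 thus disagreed with its female label. Across genes, which are not independent replicates, the 2 labelled KO arrays correlated at 0.961 with each other and the 2 DKO arrays at 0.982. Labelled KO with DKO arrays correlated at 0.918 to 0.935, and control with DKO arrays at 0.92 to 0.963. Each labelled KO array correlated better with both control arrays, at 0.962 to 0.986, than with its own partner.

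In the double knockout, 12 of 15 tight junction, 10 of 12 polarity and 7 of 18 epithelial regulator genes fell. So did 10 of 27 cornified envelope and 5 of 10 interleukin 1 family genes, and some of these genes reached the level of background. In that order the list medians were -2.99, -3.55, -1.15, -2.49 and -2.84. These lists were chosen with earlier results of these data known, so their shares are descriptions and not tests. Without labelled KO replicate 1 the medians were -3.22, -3.53, -0.91, -1.73 and -2.49. Zeb1, Vim, Lox and 1 of the 18 regulators, Trp63, rose. Of the listed genes for contractile and matrix proteins, 4 of 22 and 7 of 27 rose, and 0 of 22 and 3 of 27 did without labelled KO replicate 1. The basal keratins Krt5 and Krt14 stayed near the top of the range on all arrays. In total 628 of 19938 genes passed (3.15%; limma, Benjamini-Hochberg adjusted p under 0.05), of which 247 were higher (1.24% of the genes tested) and 381 lower (1.91%) in the DKO arrays. Changes of more than 4-fold on the offset scale were found for 100 of the higher and 249 of the lower genes, and 132 of the lower genes were at or under 6.20 in the DKO mean. The median difference of all genes was 0.02 and the median standard error 0.24. Each of the 628 genes had both DKO arrays on one side of both labelled KO arrays, but so did 8587 of all 19938 genes tested (43.1%). The count of passing genes varied widely with which of the 4 arrays was left out. Such a fit sets 1 array against 2 and is less precise. A lower count there cannot tell lost precision from dependence on the array left out. All 628 kept their direction in each of these fits. When an array is left out, its lone partner is assumed to vary like the other groups.

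**Figure D1:**
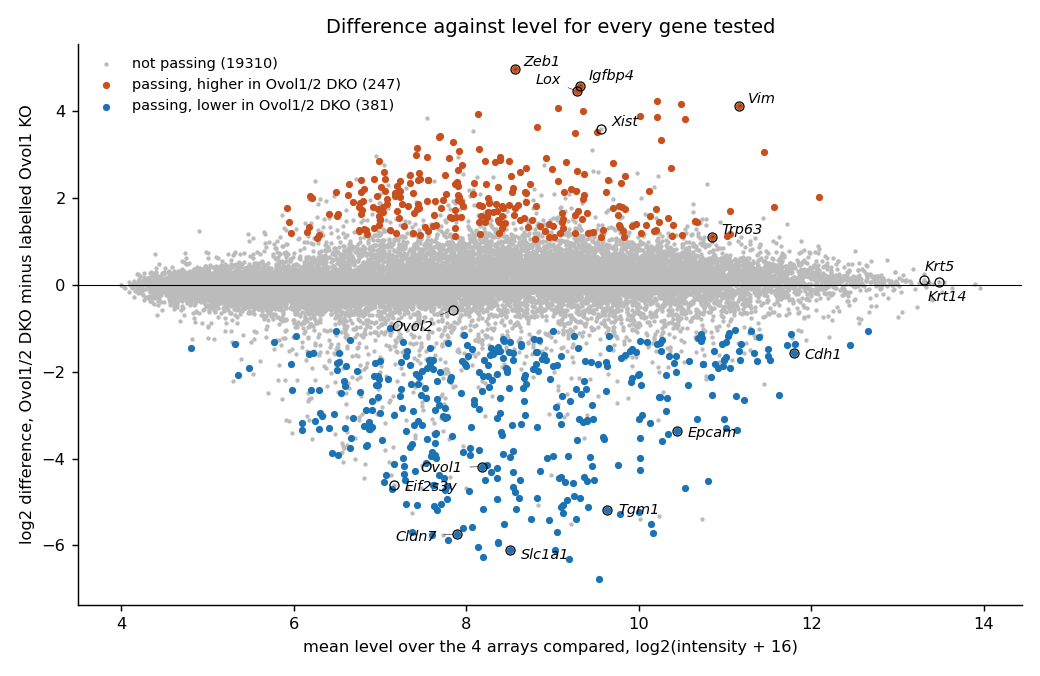
Log2 difference between Ovol1/2 DKO and labelled Ovol1 KO (vertical axis) against the mean level over the 4 arrays, log2(intensity + 16) (horizontal axis), for 19938 genes. Orange points are the 247 genes that passed higher, blue points the 381 that passed lower and grey points the rest, and circled genes are named in the text. The lower genes reach -6.78 and the higher ones 4.96, while Krt5 and Krt14 lie at the right near 0.

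Ovol1, lower on the DKO arrays by 4.18 (SE 0.34, adjusted p = 0.00477), was 18.2-fold lower than on the arrays labelled Ovol1 KO. The difference was -3.71 without labelled KO replicate 1 (adjusted p = 0.0226), and Ovol1 passed under all 19 alternative settings. Ovol2, the gene that the labels make different between these groups, read 7.88 and 8.38 on the labelled KO arrays and 7.63 and 7.50 on the DKO arrays. Its difference of -0.57 (SE 0.45, 95% interval -1.63 to 0.50, adjusted p = 0.665) did not pass, and the controls, at 8.37 and 6.97, overlapped both groups. The third family member, Ovol3, differed by -0.04 and did not pass.

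Among 12 EMT transcription factors, Zeb1 and Zeb2 rose and 4 forkhead or Snai genes fell. Zeb1, a zinc finger repressor of epithelial genes, read 5.88 and 6.29 on the labelled KO arrays, 6.06 and 6.13 on the control arrays, and 11.06 and 11.03 on the DKO arrays. It thus stood near background in both other groups and was bright on both DKO arrays (difference 4.96, SE 0.21, adjusted p = 0.00252, 31.2-fold). Zeb2, its paralog, read 5.53 and 5.91 against 7.94 and 8.36 (difference 2.43, SE 0.28, adjusted p = 0.0106). Zeb1 passed without any 1 of the 4 arrays compared, whereas Zeb2 did not pass without labelled KO replicate 1 (2.24, adjusted p = 0.0635) or without DKO replicate 2.

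The best-known inducers of EMT besides the Zeb genes did not pass. Snai1 differed by 0.11 (95% interval -0.47 to 0.69) and Twist1 by 0.04 (-0.46 to 0.54). Snai2, already bright, read 11.26 and 10.90 on the labelled KO arrays and 12.03 and 11.70 on the DKO arrays (difference 0.79, 95% interval 0.03 to 1.54, adjusted p = 0.333). The arrays of Snai2 did not overlap, but that alone was common over all genes. Foxc2, a forkhead factor, fell from 7.81 and 8.08 to 5.00 and 4.97 (difference -2.97, SE 0.30, adjusted p = 0.00819), under background on both DKO arrays. Foxq1 (-3.14), Snai3 (-2.95) and Foxc1 (-1.83) also fell. The list's median difference was 0.08, and it was -0.15 without labelled KO replicate 1, 0.21 without replicate 2, 0.18 without DKO replicate 1 and -0.03 without DKO replicate 2. Leaving out labelled KO replicate 1 left 1 of the 12 higher and 2 lower, and leaving out each of the other 3 arrays left 1 or 2 in either direction.

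Mesenchymal filament and surface genes moved in a few members. Vim, the intermediate filament protein of mesenchymal cells, read 8.39 and 9.82 on the labelled KO arrays, 11.13 and 9.92 on the control arrays and 13.20 and 13.24 on the DKO arrays. The 2 DKO arrays were close to each other and above all others, while the remaining arrays differed widely among themselves (difference 4.12, SE 0.54, adjusted p = 0.0146, 17.3-fold). The difference was 3.40 without labelled KO replicate 1, the dimmest array for Vim (adjusted p = 0.0621). Thy1, a surface glycoprotein of fibroblasts and other cells, rose by 1.90 (SE 0.22, adjusted p = 0.0106), from 7.54 and 7.96 to 9.62 and 9.68. These were 2 of the 12 listed genes, and the list's median was 0.42, which became 0.23 without labelled KO replicate 1 and 0.68 without replicate 2. Cdh2, the neural cadherin, read 7.23 and 9.06 against 9.69 and 10.77 and did not pass (2.09, adjusted p = 0.183), and Pdgfra, Pdgfrb, Cd44 and Axl had differences between -0.79 and 0.01. No member passed without labelled KO replicate 1 or without either DKO array, and 3 passed without labelled KO replicate 2.

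Of 27 genes for matrix proteins and matrix-modifying enzymes, 7 rose and none fell, with a median of 0.69. Lox, the enzyme that cross-links collagen and elastin, read 6.59 and 7.53 on the labelled KO arrays and 11.28 and 11.76 on the DKO arrays. All 4 non-DKO arrays lay at or under 7.58 for Lox (difference 4.46, SE 0.38, adjusted p = 0.00516). Ccn4, a matricellular protein and Wnt target, read 7.20 and 7.52 against 11.12 and 11.59 (95% interval of the difference 3.42 to 4.59, adjusted p = 0.00274). Fstl1, a secreted follistatin-like glycoprotein, read 7.54 and 9.27 against 12.25 and 12.91 (difference 4.17, SE 0.54, adjusted p = 0.0142), with the labelled KO arrays far apart. Tgfbi (2.82), Col5a2 (2.54), Sparc (2.03) and P4ha1 (1.71) also rose. The fibrillar collagens of dermal fibroblasts did not pass: Col1a1 differed by 0.23 (adjusted p = 0.864), Col1a2 by -0.05 and Col3a1 by -0.02. Fibronectin, Fn1, read 9.65 and 11.69 against 12.04 and 12.37 (difference 1.54, adjusted p = 0.337). When labelled KO replicate 1 was left out, 3 of the 27 passed and the median was -0.06; 3 also passed without DKO replicate 2 (median 0.17), and 4 without DKO replicate 1 (1.06). The median was 1.17 without labelled KO replicate 2. Lox and Ccn4 passed in all of these fits, and Fstl1 passed without either labelled KO array but not without either DKO array.

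Among 14 matrix proteases and their inhibitors, Timp1 alone passed. Timp1, a tissue inhibitor of metalloproteinases, read 7.91 and 8.22 on the labelled KO arrays and 12.22 and 11.70 on the DKO arrays (difference 3.90, SE 0.40, adjusted p = 0.00831). Its difference was 3.74 without labelled KO replicate 1 (adjusted p = 0.0599). Mmp2, a gelatinase, differed by 2.18 without passing (adjusted p = 0.0962), and the list's median of 0.27 became -0.39 without labelled KO replicate 1, 0.73 without replicate 2, 0.67 without DKO replicate 1 and -0.08 without DKO replicate 2. Tll1, a secreted tolloid protease on no list, rose from 6.53 and 7.51 to 10.91 and 11.29 (difference 4.08, adjusted p = 0.00654), and passed in all 19 alternatives.

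Genes of contractile and actin-linked proteins rose in 4 of 22 cases, with none lower and a median of 0.49. Acta2, smooth muscle actin, read 9.64 and 10.19 on the labelled KO arrays and 12.56 and 13.41 on the DKO arrays (difference 3.07, SE 0.33, adjusted p = 0.00894). Tagln, an actin-bundling protein, read 6.51 and 7.48 against 10.11 and 11.18 (difference 3.65, adjusted p = 0.0108), and the enteric actin Actg2 rose by 2.92. Both groups were well apart for these 3 genes. Tns1, which links actin to focal adhesions, read 7.87 and 8.31 against 11.74 and 12.94 (difference 4.25, SE 0.43, adjusted p = 0.00819). The other 5 probe sets of Tns1 had differences of 3.69, 3.63, 2.99, 1.47 and -0.08, so they disagree. Other actin-binding genes were bright in both groups and did not pass, among them Actn1 (0.19), Myh9 (0.29) and Vcl (0.48). None of the 22 passed without labelled KO replicate 1, where Acta2 differed by 2.79 (adjusted p = 0.0582), and 3 to 5 passed without each of the other arrays.

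**Figure D2:**
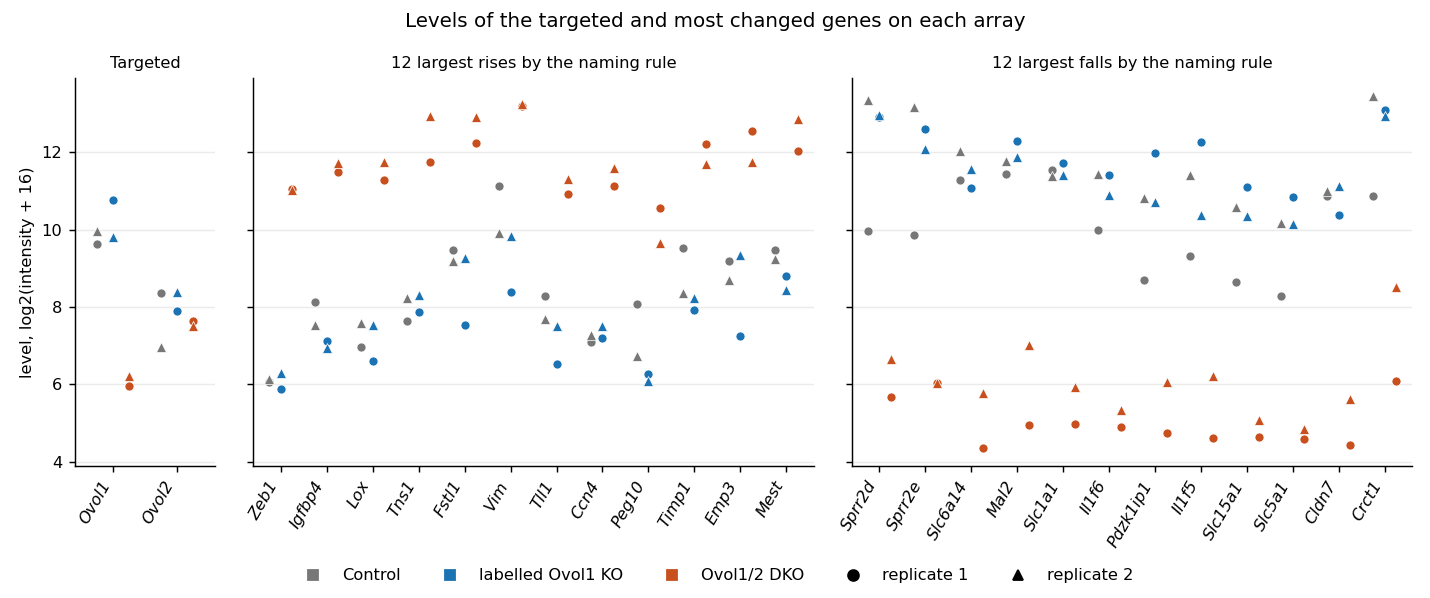
Level on each array, log2(intensity + 16), of Ovol1 and Ovol2 (left), of the 12 genes with the largest rise by the naming rule (middle) and of the 12 with the largest fall (right). Grey marks control, blue labelled Ovol1 KO and orange Ovol1/2 DKO; circles are replicate 1 and triangles replicate 2. Zeb1 sits between 5.88 and 6.29 on the 4 other arrays and at 11.06 and 11.03 on the DKO arrays, and Ovol2 overlaps among the groups.

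The remaining genes with the largest rises were of varied function. Igfbp4, a secreted binding protein of insulin-like growth factors, read 7.11 and 6.95 on the labelled KO arrays and 11.50 and 11.73 on the DKO arrays (difference 4.59, SE 0.26, adjusted p = 0.00268, 24.0-fold). Peg10, a retrotransposon-derived imprinted gene, rose by 3.94, the imprinted hydrolase-like gene Mest by 3.83, and the membrane protein gene Emp3 by 3.86 (adjusted p = 0.0120, 0.00477 and 0.0313). Igfbp4 and Mest passed under all 19 alternatives. Peg10 (4.03, adjusted p = 0.0681) and Emp3 (2.81, adjusted p = 0.0621) did not pass without labelled KO replicate 1.

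Epithelial regulators fell in 7 of 18 cases, while 1, Trp63, rose; the median was -1.15. Ehf, an Ets factor of epithelia, read 11.46 and 10.92 on the labelled KO arrays and 4.53 and 6.85 on the DKO arrays (difference -5.50, SE 0.69, adjusted p = 0.0130, 45.3-fold lower). Elf3, a related Ets factor, went from 10.95 and 10.80 to 6.04 and 6.73 (difference -4.49, SE 0.38, adjusted p = 0.00504). Zfp750, a regulator of terminal differentiation, read 12.19 and 11.47 against 7.27 and 8.10 (difference -4.14, adjusted p = 0.00516). These 3 genes were bright on both labelled KO arrays and at most 8.10 on the DKO arrays.

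Of the grainyhead factors, which activate junction and barrier genes, Grhl1 and Grhl3 fell. Grhl3 read 11.70 and 11.13 on the labelled KO arrays and 6.94 and 7.98 on the DKO arrays (difference -3.96, SE 0.37, adjusted p = 0.00674), and Grhl1 fell by 4.32 (adjusted p = 0.0139). Grhl2 read 9.40 and 9.36 against 8.83 and 7.79 and did not pass (-1.07, 95% interval -1.98 to -0.16, adjusted p = 0.259). The splicing regulator Esrp2, which keeps epithelial exons in transcripts, fell by 1.36, and its paralog Esrp1 differed by -1.20 at an adjusted p of 0.0538. Rbm47, an RNA-binding protein of epithelia, fell by 1.54. Klf4, Klf5, Gata3, Tfap2a and Tfap2c had differences from -0.91 to 0.38 and did not pass. Trp63, the p53-family factor of basal keratinocytes, rose 2.14-fold (SE 0.21 on the log2 scale, adjusted p = 0.0464), from 10.44 and 10.16 to 11.40 on both DKO arrays, and lost that call when any of the 4 arrays was left out. Of the 18, 4 passed lower without labelled KO replicate 1, and 4 to 6 did without the other arrays.

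Tight junction genes fell widely: 12 of 15 passed lower and none rose, with a median of -2.99, against 1.91% lower among all genes. The list was chosen with earlier results of these data known, so this share is a description. Cldn7, a claudin of epithelial lateral membranes, read 10.37 and 11.14 on the labelled KO arrays, at least 10.88 on both control arrays, and 4.42 and 5.62 on the DKO arrays. Both DKO arrays were under the background mark (difference -5.73, SE 0.43, adjusted p = 0.00427, 53.1-fold lower). Ocln, occludin, the membrane-spanning protein of tight junction strands, went from 10.09 and 9.92 to 5.63 and 6.54 (difference -3.92, SE 0.32, adjusted p = 0.00479). Cldn4 remained above the median gene level after its fall, at 8.95 and 9.99 against 12.62 and 12.98 (difference -3.33, adjusted p = 0.00874). Cldn23, Cldn3 (-5.07), Marveld2 (-3.28), Marveld3 (-3.26), Cldn6 (-2.99), Tjp3 (-2.90) and Cgn (-2.05) fell in the same contrast. The falls of Cldn1 (-1.39) and of the scaffold gene Tjp1 (-1.37) were smaller, and Cldn1 still read 11.50 and 12.01 on the DKO arrays. F11r (-0.91), Cldn8 (-0.76) and Cldn12 (-0.05) did not pass. Leaving out labelled KO replicate 1 left 6 of the 15 passing with a median of -3.22, and leaving out each of the other 3 arrays left 7 to 10. Since these are bulk samples, fewer cells with a tight junction programme and less RNA in each cell cannot be told apart, here or for any group below.

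Apical polarity, vesicle transport and surface genes of epithelia fell in 10 of 12 cases, with none higher and a median of -3.55. Mal2, a protein of transcytosis, read 12.29 and 11.89 on the labelled KO arrays and 4.93 and 7.03 on the DKO arrays (difference -6.11, SE 0.62, adjusted p = 0.00819, 69.1-fold lower). Rab25, a small GTPase of apical recycling, read 12.71 and 12.14 against 5.74 and 8.54 (difference -5.29, SE 0.80, adjusted p = 0.0220). The 2 DKO arrays differed by more than the labelled KO arrays for both genes. Crb3, which sets up the apical domain, went from 9.57 and 10.30 to 5.13 and 5.51 (difference -4.61, adjusted p = 0.00585). Ap1m2, the epithelial subunit of a clathrin adaptor, fell by 4.93, and the motor gene Myo5b by 4.12 (adjusted p = 0.00654 and 0.00356). Epcam, the epithelial cell adhesion molecule, read 11.93 and 12.32 against 8.78 and 8.74 (difference -3.37, SE 0.22, adjusted p = 0.00355). Tmem30b (-3.72), Pard6b (-2.07), Llgl2 (-1.76) and Patj (-1.44) fell, whereas Lsr (-1.13) and Cd24a (-0.17) did not pass. Of the 12, 5 passed without labelled KO replicate 1, and 7 or 8 did without each of the others.

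Of the adherens junction and desmosome genes, 7 of 21 fell and none rose. Cdh1, E-cadherin, read 12.67 and 12.50 on the labelled KO arrays and 10.81 and 11.22 on the DKO arrays, so it stayed bright (difference -1.57, SE 0.24, adjusted p = 0.0215, 2.98-fold lower). Nectin4, an immunoglobulin-like adhesion molecule, went from 11.17 and 10.81 to 6.16 and 7.26 (difference -4.28, adjusted p = 0.00874). Nectin2 (-1.32) and the linker Afdn (-1.29) also fell, which made 4 of 11 adherens junction genes lower and none higher, with a median of -0.62 that was -0.38 without labelled KO replicate 2 and -0.37 without DKO replicate 1. The catenins Ctnna1 (-0.04) and Ctnnb1 (0.13) did not pass. In the desmosome, 3 of 10 genes fell and none rose, with a median of -0.41 (-0.26 without DKO replicate 1): Dsc2 by 2.99, Pkp3 by 1.29 and Dsg3 by 1.20 (adjusted p = 0.0109, 0.0418 and 0.0351). Dsp, Perp, Pkp1 and Dsc3 differed by -0.33 to -0.10 and did not pass. The largest difference of the desmosome list, -3.44, belonged to another member that did not pass. None of the 21 genes of these 2 lists passed without labelled KO replicate 1, where Cdh1 differed by -1.49 (adjusted p = 0.0994), and Cdh1 also missed the threshold without any 1 of the other 3 arrays. The 4 connexins measured did not pass, and Gjb6 read 9.47 and 6.19 on the labelled KO arrays, further apart than its group difference of -2.11 (adjusted p = 0.435); the median of the 4, -0.42, was 0.18 without labelled KO replicate 1, -1.03 without replicate 2, -0.82 without DKO replicate 1 and -0.10 without DKO replicate 2.

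**Figure D3:**
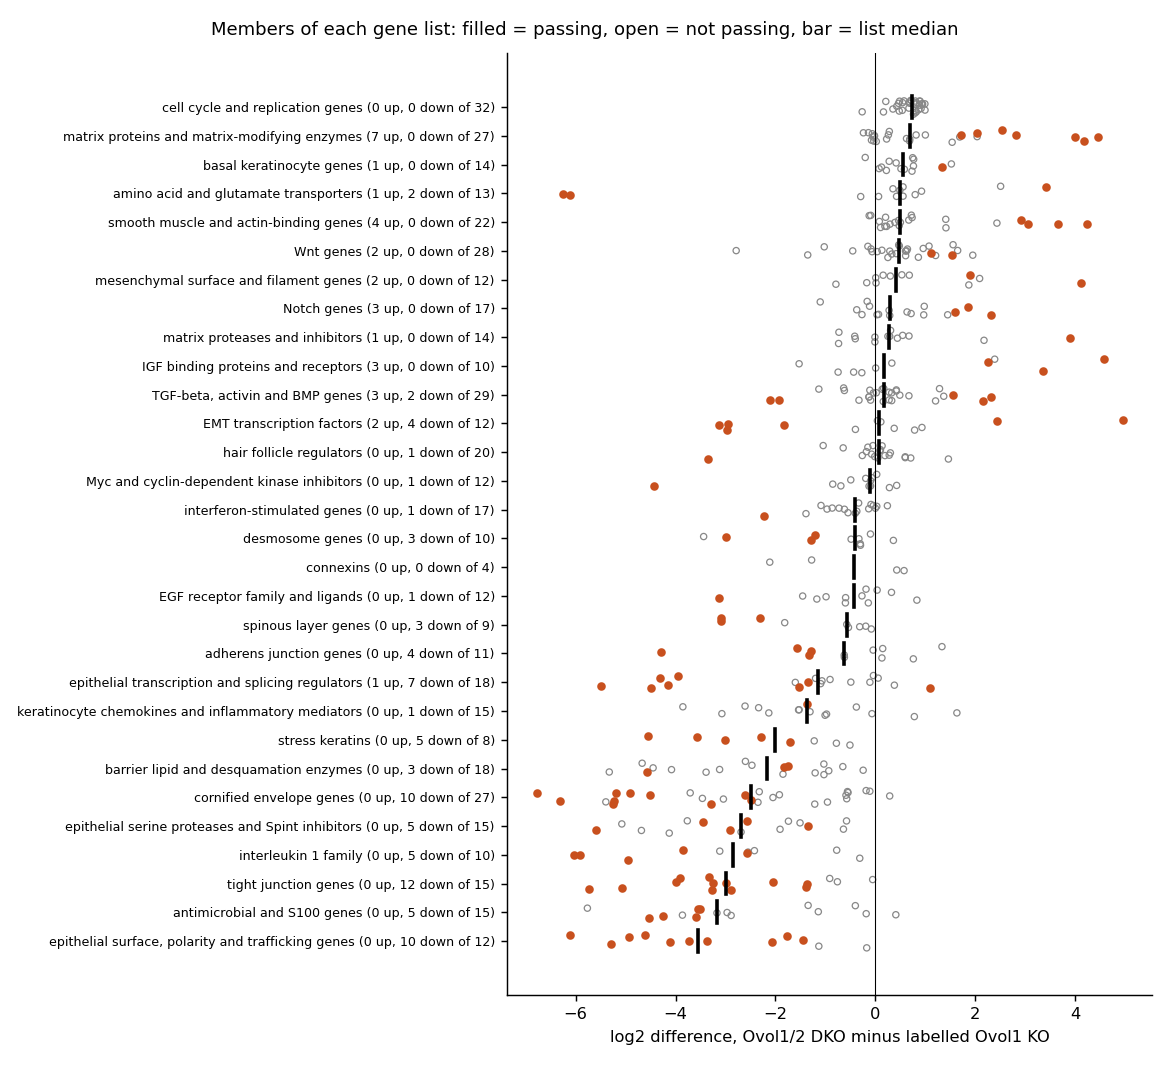
Log2 difference between Ovol1/2 DKO and labelled Ovol1 KO for each measured member of 30 gene lists; filled orange points passed, open grey points did not, and the black bar is the list median. The counts at the left give members passing higher (up) and lower (down) out of those measured. Tight junction and polarity genes lie to the left with medians of -2.99 and -3.55, while cell cycle genes cluster near 0.74 with none passing.

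Promoter sequence was read for the named genes, since several junction and polarity genes that fell are textbook targets of Zeb and Snai factors. RefSeq promoter windows (GRCm38.p6, 250 bases before the start of transcription to 50 after it) matched 66 of the 102 named genes that passed, and 15614 of all genes tested. The motifs searched on both strands were the E-box CAGGTG, whose other strand reads CACCTG, which Zeb and Snai factors bind, and CCGTTA, whose other strand reads TAACGG, a core reported for Ovol factors. The upstream 250 bases of 5 genes that fell and hold several E-boxes, and of Igfbp4, which rose and holds the Ovol core, are printed 5′ to 3′ along the gene's strand, with matches in capitals.
Ap1m2, chr9:21312334-21312583, minus strand: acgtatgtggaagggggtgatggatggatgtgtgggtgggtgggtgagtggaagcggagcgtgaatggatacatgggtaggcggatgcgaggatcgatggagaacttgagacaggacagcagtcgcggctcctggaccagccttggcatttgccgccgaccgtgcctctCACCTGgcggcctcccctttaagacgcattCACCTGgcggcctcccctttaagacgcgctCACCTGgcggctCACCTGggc
Crb3, chr17:57061951-57062200, plus strand: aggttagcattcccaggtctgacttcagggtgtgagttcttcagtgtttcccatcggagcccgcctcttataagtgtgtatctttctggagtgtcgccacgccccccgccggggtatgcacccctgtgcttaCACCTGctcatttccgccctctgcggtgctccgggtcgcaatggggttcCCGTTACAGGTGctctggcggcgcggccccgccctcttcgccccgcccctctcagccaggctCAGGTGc
Rab25, chr3:88548280-88548529, minus strand: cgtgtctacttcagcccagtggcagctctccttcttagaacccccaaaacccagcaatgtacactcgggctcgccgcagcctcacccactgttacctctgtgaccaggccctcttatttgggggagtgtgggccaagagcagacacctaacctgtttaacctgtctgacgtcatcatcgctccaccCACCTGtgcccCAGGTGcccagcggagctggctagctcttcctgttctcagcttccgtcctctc
Spint2, chr7:29281978-29282227, minus strand: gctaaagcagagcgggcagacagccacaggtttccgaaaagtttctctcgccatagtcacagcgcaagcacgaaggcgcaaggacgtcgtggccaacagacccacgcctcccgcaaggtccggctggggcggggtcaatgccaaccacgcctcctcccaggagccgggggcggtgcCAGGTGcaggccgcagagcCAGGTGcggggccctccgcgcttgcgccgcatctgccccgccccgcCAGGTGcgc
Cldn7, chr11:69965171-69965420, plus strand: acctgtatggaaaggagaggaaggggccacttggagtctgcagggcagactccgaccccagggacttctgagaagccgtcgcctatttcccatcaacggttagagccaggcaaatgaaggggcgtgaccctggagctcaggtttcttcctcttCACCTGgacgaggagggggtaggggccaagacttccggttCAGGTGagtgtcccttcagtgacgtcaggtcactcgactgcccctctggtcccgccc
Igfbp4, chr11:99040994-99041243, plus strand: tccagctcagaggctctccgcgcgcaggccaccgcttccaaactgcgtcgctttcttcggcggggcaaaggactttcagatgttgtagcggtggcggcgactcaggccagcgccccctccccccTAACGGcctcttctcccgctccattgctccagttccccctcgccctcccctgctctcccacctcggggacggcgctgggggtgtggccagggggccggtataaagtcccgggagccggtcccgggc

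Ap1m2 held 4 E-boxes, at 81, 51, 21 and 9 bases before the start. Spint2 had matches at 74, 55 and 9 bases before the start, and Rab25 at 64 and 53. In Crb3 an Ovol core at 69 bases before the start directly abutted an E-box at 63, and further E-boxes stood at 118 and 7. Igfbp4 carried its only match, TAACGG, at 126 bases before the start. Cldn7 held E-boxes at 97 and 57 bases before the start in the window printed, while its other window held no match. Of the named genes with a window, 23 of 46 that fell and 4 of 20 that rose held an E-box. Over all tested genes with a window, 22.2% held an E-box and 3.59% an Ovol core. Among the genes that passed lower, 129 of 279 held an E-box (46.2%), and among those that passed higher, 29 of 181 did (16.02%). For the Ovol core the counts were 5 of 279 (1.79%) and 12 of 181 (6.63%). Of all 32851 windows, 20.2% held an E-box and 2.76% an Ovol core. A match is a string of letters in a window and not a bound site, and base composition was not matched between these sets. Level was not matched either. A gene could pass lower only if it had signal on the labelled KO arrays, whereas the tested genes include dim ones. A role of Zeb, Snai or Ovol factors in these shares was not tested.

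**Figure D4:**
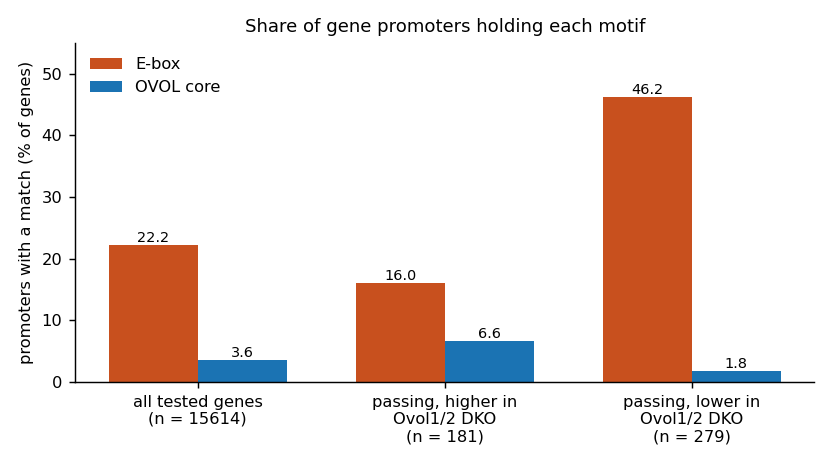
Share of genes (vertical axis, %) with at least 1 match to the E-box or to the Ovol core in a promoter window, for all tested genes with a window and for the genes that passed higher or lower in Ovol1/2 DKO. The E-box was present in 46.2% of the lower genes and 22.2% of all, and no error is drawn because the shares describe fixed gene sets. The sets were not matched for level or base composition.

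Epithelial serine proteases, membrane-anchored and secreted, and their inhibitors fell in 5 of 15 cases, with none higher and a median of -2.69. St14, matriptase, read 11.69 and 11.85 on the labelled KO arrays and 8.62 and 9.10 on the DKO arrays (difference -2.91, SE 0.23, adjusted p = 0.00445). Its partners fell with it: the protease Prss8 by 3.44 (adjusted p = 0.0256), and the inhibitors Spint1 by 2.58 (adjusted p = 0.00752) and Spint2 by 1.36 (adjusted p = 0.0223). Spink5, which inhibits the kallikreins that shed cornified cells, went from 11.56 and 9.95 to 4.40 and 5.93 (difference -5.59, SE 0.66, adjusted p = 0.0106). The kallikrein Klk7 had a difference of similar size that did not pass (-5.08, adjusted p = 0.0532), with 12.35 and 10.38 on the labelled KO arrays. St14 and Spint1 were the 2 that passed without labelled KO replicate 1, and 3 to 5 passed without each of the other arrays.

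Basal keratinocyte genes were bright on all 4 arrays and 1 of 14, Dst, passed. Krt5 read 13.44 and 13.45 on the labelled KO arrays and 13.49 and 13.55 on the DKO arrays (difference 0.07, 95% interval -0.37 to 0.52), and Krt14 differed by 0.12 (-0.32 to 0.57). These levels lie near the top of the scale, where a change may be compressed, which was not tested. The basal keratin Krt15 had the largest difference of the list, 1.52, and did not pass. Dst, dystonin, which anchors keratin filaments to hemidesmosomes, rose by 1.34 (SE 0.22, adjusted p = 0.0267), from 9.09 and 9.14 to 10.40 and 10.50, and lost the call when any of the 4 arrays was left out. The integrins Itga6 (0.75), Itgb1 (0.73) and Itgb4 (0.58) and the hemidesmosomal collagen Col17a1 (0.76) did not pass, and the list's median was 0.55, or 0.21 without labelled KO replicate 1.

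Of 9 spinous layer genes, 3 fell and none rose, with a median of -0.57. Serpinb2, a protease inhibitor of differentiating keratinocytes, read 12.28 and 12.78 on the labelled KO arrays and 8.95 and 9.95 on the DKO arrays (difference -3.08, SE 0.36, adjusted p = 0.0106). Dmkn and Sbsn, secreted proteins of the suprabasal layers, had differences of -3.09 and -2.32 (adjusted p = 0.0245 and 0.0285). The spinous keratins Krt1 (-0.57, 95% interval -1.03 to -0.12) and Krt10 (-0.54, -1.02 to -0.05) did not pass (adjusted p = 0.225 and 0.294). Krtdap read 11.72 on labelled KO replicate 1 and 6.91 on replicate 2, with the DKO arrays between them at 9.88 and 8.36. No spinous gene passed without labelled KO replicate 1, and 4 passed without replicate 2, with a median of -2.60; without DKO replicate 1 the median was -0.95.

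Cornified envelope genes fell in 10 of 27 cases, with none higher and a median of -2.49. Tgm1, the transglutaminase that cross-links the envelope, read 12.40 and 12.05 on the labelled KO arrays, 11.74 and 12.35 on the control arrays, and 6.48 and 7.61 on the DKO arrays. It was far below the other arrays on both DKO arrays (difference -5.19, SE 0.41, adjusted p = 0.00445, 36.4-fold lower). Sprr2d, one of the small proline-rich envelope precursors, read 12.91 and 12.95 against 5.66 and 6.64 (difference -6.78, SE 0.98, adjusted p = 0.0194). Its DKO mean was under the background mark, and the difference ranged from -7.27 to -6.02 over the alternatives. The control arrays, which also enter the error, were far apart, at 9.96 and 13.34. Sprr2e (-6.32), Cdsn (-5.25), Sprr1b (-5.23), Sprr2h (-4.91), Sprr1a (-4.51) and Sprr3 (-3.30) fell, as did the plakins Ppl (-2.61) and Evpl (-2.49). The Sprr genes lie in a cluster of near-identical copies, so signal may be shared among their probe sets. Crct1, a cysteine-rich gene of the same kind of cell, fell by 5.72 (adjusted p = 0.0335). Lor, the major envelope protein loricrin, read 9.92 and 6.92 against 4.29 and 5.14 and did not pass (-3.71, adjusted p = 0.0903), and Ivl, involucrin, differed by -0.59. Tgm1 and Evpl were the 2 members that passed without labelled KO replicate 1, and 5 or 6 passed without each of the others.

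Barrier lipid enzymes differed between the 2 labelled KO arrays. Of 18 genes, 3 fell and none rose, with a median of -2.16: the lipid transporter Abca12 fell from 12.05 and 10.99 to 6.98 and 6.93 (difference -4.56, SE 0.35, adjusted p = 0.00445), the ceramide synthase Cers3 by 1.82 and the fatty acid elongase Elovl7 by 1.74. Alox12b, a lipoxygenase needed for the barrier, read 10.82 and 7.48 on the labelled KO arrays and 4.83 and 5.31 on the DKO arrays, and did not pass (-4.08, adjusted p = 0.105). Sdr9c7 read 11.06 and 7.03 against 4.49 and 4.70 (-4.45, adjusted p = 0.147). The mean level of the list was 10.99 on labelled KO replicate 1 and 9.02 on replicate 2, against 7.32 and 7.67 on the DKO arrays and 9.26 and 9.94 on the controls. Without replicate 2 of the labelled KO, 13 of the 18 passed lower (median -3.07), and without replicate 1 only Abca12 did (median -1.45).

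**Figure D5:**
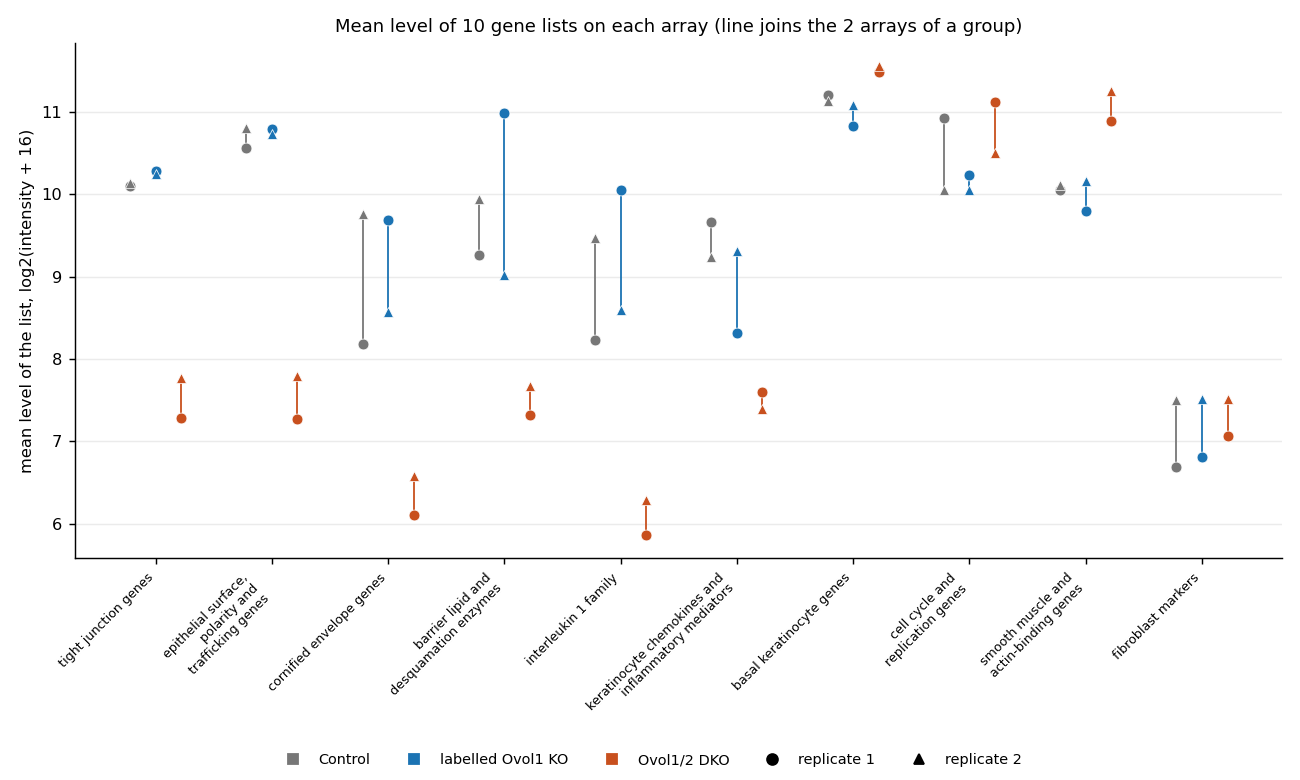
Mean level, log2(intensity + 16), of 10 gene lists on each of the 6 arrays; grey is control, blue labelled Ovol1 KO, orange Ovol1/2 DKO, circles replicate 1 and triangles replicate 2, and a line joins the arrays of a group. Tight junction genes sit at 10.29 and 10.24 on the labelled KO arrays and 7.29 and 7.77 on the DKO arrays, whereas barrier lipid enzymes lie further apart between the labelled KO arrays, at 10.99 and 9.02, than between the lower of these and either DKO array, at 7.32 and 7.67.

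Keratins of stressed and simple epithelia fell in 5 of 8 cases, with none higher and a median of -2.01. Krt6b read 12.02 and 10.82 on the labelled KO arrays and 6.37 and 7.37 on the DKO arrays (difference -4.55, adjusted p = 0.0177), and Krt16, a keratin of wound edges, fell by 3.56 (adjusted p = 0.0240). The simple epithelial keratins Krt19 (-3.02), Krt7 (-2.30) and Krt8 (-1.72) also fell. Krt6a (-0.78) and Krt17 (-0.51) did not pass and stayed above 12 on all 4 arrays. Krt16 alone passed without labelled KO replicate 1, and 0, 2 and 2 of the 8 passed without DKO replicate 1, DKO replicate 2 and labelled KO replicate 2.

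Among 10 interleukin 1 family genes, 5 fell and none rose, with a median of -2.84. Il1f6, now named Il36a, a cytokine released by keratinocytes, read 11.42 and 10.88 on the labelled KO arrays and 4.90 and 5.33 on the DKO arrays. Both DKO arrays were under the background mark (difference -6.04, SE 0.48, adjusted p = 0.00445, 65.7-fold lower). Il1f5, the antagonist now named Il36rn, went from 12.27 and 10.37 to 4.61 and 6.20 (difference -5.91, adjusted p = 0.0228), and Il1f9, now Il36g, fell by 4.96 (adjusted p = 0.0188). The antagonist Il1rn fell by 3.85 and Il1a by 2.56, and Il1a still read 10.58 and 9.11 on the DKO arrays. Both agonists and antagonists were among the genes that fell. Il1f6 was the 1 gene that passed without labelled KO replicate 1; 1 or 2 passed without either DKO array and 6 without labelled KO replicate 2, where the median was -4.36.

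Antimicrobial and S100 genes fell in 5 of 15 cases, with none higher and a median of -3.17. S100a14, a calcium-binding protein of epithelia, read 11.29 and 11.40 on the labelled KO arrays and 7.83 and 7.85 on the DKO arrays, with close replicates in both groups (difference -3.51, SE 0.24, adjusted p = 0.00356). The iron-binding protein gene Lcn2 read 12.59 and 11.70 against 7.14 and 8.64 (difference -4.26, adjusted p = 0.0204). The defensin Defb14 (-4.53), the protease inhibitor Slpi (-3.59) and the bacterial wall-binding Pglyrp1 (-3.55) fell too. Defb3 had 11.08 and 10.14 against 4.74 and 4.95 but did not pass (-5.77, adjusted p = 0.0614), and S100a8 and S100a9 differed by -2.89 and -2.97 without passing. S100a14 alone passed without labelled KO replicate 1, where the median was -1.91, and 1 to 4 passed without each of the others.

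Chemokines and inflammatory mediators ran the other way between the labelled KO arrays, with a list mean of 8.32 on replicate 1 and 9.31 on replicate 2, against 7.60 and 7.40 on the DKO arrays. Of 15 genes only Ptgs2, the inducible cyclooxygenase, passed, falling by 1.37 (SE 0.27, adjusted p = 0.0492) from 12.16 and 12.83 to 11.23 and 11.02, and the list's median was -1.37. It lost the call when any of the 4 arrays was left out. Csf2, a growth factor of myeloid cells, read 6.82 and 10.17 against 4.85 and 4.43 (-3.85, adjusted p = 0.111), and Tnf read 8.23 and 10.25 against 6.17 on both DKO arrays (-3.07, adjusted p = 0.0601). In the fit without labelled KO replicate 1, 4 of the 15 passed lower. Among 17 interferon-stimulated genes, the antiviral Rsad2 fell by 2.22 (adjusted p = 0.0187), the rest did not pass, and the median was -0.40 (-0.74 without DKO replicate 2); none passed when any 1 of the 4 arrays was left out.

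Cell cycle and replication genes were higher on average in the DKO arrays, with a median of 0.74, but none of 32 passed. In 28 of the 32 genes both DKO arrays were above both labelled KO arrays, against 24.6% of all genes. Kif11, a spindle motor, read 9.57 and 9.17 on the labelled KO arrays and 10.66 and 10.07 on the DKO arrays (difference 0.99, SE 0.39, adjusted p = 0.309), and Top2a, which untangles replicated DNA, differed by 0.80 (adjusted p = 0.298). Their mean level was 11.11 and 10.50 on the DKO arrays and 10.23 and 10.05 on the labelled KO arrays, while the controls, at 10.92 and 10.05, spanned most of that range. Without DKO replicate 1 the median was 0.40, and without DKO replicate 2 it was 1.08. Of 12 Myc-family genes and cyclin-dependent kinase inhibitors, Mxd1, a Myc antagonist of differentiating cells, fell from 11.59 and 11.56 to 6.72 and 7.59 (difference -4.43, SE 0.62, adjusted p = 0.0174), and missed the threshold when any of the 4 arrays was left out. Myc differed by 0.28, and the list's median of -0.11 was 0.01 without labelled KO replicate 1, -0.45 without replicate 2 and -0.32 without DKO replicate 2.

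Signalling genes moved in single members. In the TGF-beta, activin and BMP list, 3 of 29 rose and 2 fell, with a median of 0.17 (0.33 without labelled KO replicate 2 and 0.25 without DKO replicate 2). The ligand Tgfb3 read 6.89 and 7.23 on the labelled KO arrays and 9.29 and 9.49 on the DKO arrays (difference 2.32, SE 0.24, adjusted p = 0.00861), and Ltbp1, which stores latent TGF-beta in the matrix, rose by 2.15 (adjusted p = 0.0248). The ligands Tgfb1 (0.49, 95% interval -0.09 to 1.07) and Tgfb2 (-1.13) did not pass. Inhba, the activin A subunit, fell from 11.60 and 12.18 to 9.50 and 10.06 (difference -2.12, adjusted p = 0.0157). The Id factors, targets of BMP signals, were split, with Id1 higher by 1.56, Id2 lower by 1.93, and Id3 and Id4 at 0.02 and -0.04 without passing. Inhba was the 1 member that passed without labelled KO replicate 1; 1, 0 and 3 passed without DKO replicate 1, DKO replicate 2 and labelled KO replicate 2.

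In the Notch list 3 of 17 genes rose and none fell, with a median of 0.29 (0.49 without labelled KO replicate 2). The ligand Jag2 read 9.28 and 9.39 on the labelled KO arrays and 10.96 and 10.90 on the DKO arrays (difference 1.59, SE 0.23, adjusted p = 0.0200). The ligand Dll1 rose by 1.85 and Lfng, a glycosyltransferase that tunes Notch receptors, by 2.32 (adjusted p = 0.0369 and 0.0400). Of the targets, Hes1 (0.72) and Nrarp (0.98) did not pass, nor did the receptor Notch1 (0.64). In the Wnt list 2 of 28 rose and none fell, with a median of 0.47. They were the ligand Wnt3a, by 1.53, and the receptor Fzd6, by 1.12 (limma adjusted p = 0.0409 and 0.0447). Fzd6 passed in 6 of the 19 alternatives. The 26 members that did not pass ranged from -2.79 to 1.95. With the 4 arrays alone, 3 members passed higher and 1 lower. The target Axin2 differed by 0.86 (adjusted p = 0.207). No member of either list passed without labelled KO replicate 1 or without either DKO array, and 1 other member of each list passed without labelled KO replicate 2.

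Insulin-like growth factor genes rose in 3 of 10 cases and none fell, with a median of 0.17 that was -0.22 without labelled KO replicate 1, 0.56 without replicate 2, 0.27 without DKO replicate 1 and 0.06 without DKO replicate 2. Besides Igfbp4, the growth factor Igf2 read 9.05 and 8.13 on the labelled KO arrays and 12.10 and 11.78 on the DKO arrays (difference 3.35, SE 0.37, adjusted p = 0.0100), and Igfbp6 rose by 2.26 (adjusted p = 0.0353). The receptors Igf1r (-0.27) and Igf2r (-0.43) did not pass. These 3 calls held without labelled KO replicate 1, and 1 or 2 held without each of the other arrays. Of 12 EGF receptor genes and ligands, Erbb3, the kinase-poor partner receptor, fell from 11.14 and 10.79 to 7.69 and 7.97 (difference -3.13, SE 0.26, adjusted p = 0.00504) and passed under all 19 alternatives. The list's median was -0.43, and a further member passed without labelled KO replicate 2.

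Membrane transporters were among the largest falls, and 1 listed carrier, Slc7a8, rose. Slc6a14, a broad amino acid carrier of epithelia, read 11.08 and 11.56 on the labelled KO arrays and 4.34 and 5.78 on the DKO arrays (difference -6.26, SE 0.50, adjusted p = 0.00445, 76.7-fold lower). Slc1a1, a glutamate carrier, read 11.72 and 11.41 against 4.97 and 5.93 (difference -6.11, SE 0.33, adjusted p = 0.00268, 69.1-fold lower). Slc7a8, a neutral amino acid exchanger, rose from 5.94 and 6.02 to 8.94 and 9.84 (difference 3.41, SE 0.32, adjusted p = 0.00654). The first pair fell under the background mark on the DKO arrays, and Slc7a8 was under it on the labelled KO arrays. All 3 passed without any 1 of the 4 arrays, while the other 10 genes of the list did not pass, and the list's median was 0.49, or 0.27 without labelled KO replicate 2 and 0.24 without DKO replicate 1. Outside the list, the peptide carrier Slc15a1 fell by 5.88, the sodium-glucose carrier Slc5a1 by 5.77 and Pdzk1ip1, a small membrane protein that binds transporter scaffolds, by 5.94 (adjusted p = 0.00856, 0.00819 and 0.0146). In the fit without labelled KO replicate 1 their adjusted p-values were 0.0600, 0.0585 and 0.0853. Among 20 hair follicle regulators, Foxn1, the forkhead gene of the nude phenotype, fell from 9.38 and 8.57 to 5.80 and 5.43 (difference -3.36, SE 0.31, adjusted p = 0.00644); the others did not pass, and the median of 0.07 was -0.06 without labelled KO replicate 1, 0.16 without replicate 2 and 0.02 without DKO replicate 2.

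The control arrays place both groups. Against control, which shares the DKO arrays with the main contrast and so is not separate evidence, 403 genes passed in the double knockout (2.02%), and none did when the labelled KO was set against control (0%, limma). Zeb1 was higher than control by 4.95 and Cldn7 lower by 5.92, next to 4.96 and -5.73 against the labelled KO. Vim differed from control by 2.70 without passing (adjusted p = 0.0730), against 4.12 from the labelled KO, and Trp63 differed by 0.93 (adjusted p = 0.102). Among tight junction genes 9 of 15 passed against control, and among polarity genes 10 of 12.

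Marker genes of the cells that such cultures could hold gave the following levels. The 8 keratinocyte markers had mean levels of 11.82 and 11.69 on the labelled KO arrays and 12.05 and 12.22 on the DKO arrays, and Trp63 was the 1 that passed. The 11 fibroblast markers averaged 6.81 and 7.51 against 7.07 and 7.51, with Thy1 the 1 that passed, and Lum, Mfap5 and Dcn differed by -0.11, -0.03 and 0.09. In the lists for smooth muscle cells and pericytes (6 genes) and endothelium (8 genes), Cspg4 rose by 2.05 and Pecam1 by 1.28, while Myh11, Des, Cdh5 and Kdr differed by -0.12, 0.23, -0.07 and -0.08 and did not pass. No gene of the melanocyte, leukocyte, Schwann cell, Merkel cell and skeletal muscle lists passed. The 3 Schwann cell markers measured averaged 8.82 and 9.16 on the labelled KO arrays and 8.40 and 8.54 on the DKO arrays. The melanocyte, leukocyte, Merkel cell and skeletal muscle lists averaged at most 7.47 on any of these arrays.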

How the data were processed

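RNA was hybridised to one-colour Affymetrix gene arrays, 6 in all. The authors deposited linear probe set intensity values; per the submitters' processing notes they came from PLIER 2.0, which summarises probes into probe sets, in Expression Console 1.1.1. Normalization, background steps and filters were not given in the sources used here. Of 35556 probe sets, a platform annotation gave 21789 a single gene symbol and 1621 several, and 12146 are unnamed here; 999 genes had more than 1 probe set, and the brightest on average was kept.

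Values were taken as log2(intensity + 16). One limma 3.58.1 model (R 4.3.3, lmFit and eBayes) was fitted to all 6 arrays (3 residual degrees of freedom, 3.68 from the prior), and p-values were adjusted over all 19938 genes. No exact test of 2 arrays against 2 can give a two-sided p below 0.333. Per the labels, replicates are biological with 2 mice pooled on each array, so p-values measure the spread between such pools. Members and lists were chosen with earlier results of these data known. Named by rule were the targeted genes, a sex check, Krt5, Krt14, Cdh1, Vim, Trp63 and Zeb1, the 12 largest passing changes per direction (non-overlapping arrays, the higher group's mean at or above 7.56, an ordinary symbol), and up to 5 passing genes per list, or up to 2 by p where none passed. Other genes were named after their values were seen. Of 575 list symbols, 29 were not measured. The fit was also run on simulated data with normal noise and its own fitted variances. These held no outlying arrays, so that run cannot speak for the real calls. Alternatives were a replicate block, the 4 arrays alone, leaving out each array or both arrays lacking Xist signal, quantile and median scaling, offsets of 1 or 64, dropping dim genes, testing all probe sets or their mean per gene, and a trended, robust or array-weighted variance.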

Additional observations from a re-analysis of the deposited data

How the results depend on the processing

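Against 628 passing genes, 1022 passed with the replicate number as a replicate block (524 higher, 498 lower, 621 shared), 1508 with both arrays that lack Xist signal left out (834 higher, 674 lower), 311 with an offset of 64 and 206 when all 35556 probe sets were tested; leaving out 1 array at a time gave 135 to 831. The other alternatives gave 580 to 831. A lone array in a group is assumed to vary like the other groups. With both arrays lacking Xist signal left out, the residual spread came from the 2 DKO arrays alone. The larger count there is therefore no sign of a stronger result. Leaving out either control array gave the same counts as the 4 arrays alone, so these alternatives are not separate checks. All 628 kept their direction wherever they were measured, in all 19 alternatives. Of 102 named genes that passed, 28 passed in every alternative, 35 without labelled KO replicate 1, 58 with an offset of 64 and 43 over all probe sets. Kdm5d and Uty, lower by 2.98 and 2.62, differed by 0.18 and 0.16 without labelled KO replicate 1, and likewise without both arrays lacking Xist, and by -6.14 and -5.39 without labelled KO replicate 2, because these Y-linked genes were high on labelled KO replicate 1 alone. Replicate numbers are not said to mark a shared batch; deviations of same-numbered arrays correlated at 0.194 between the 2 groups compared, 0.261 between control and labelled KO, and 0.49 between control and DKO. The medians of the EMT factor, matrix, protease, connexin, Myc, IGF and hair follicle lists change sign when labelled KO replicate 1 is left out. No depth can be given for arrays, and differences of genes at or under 6.20 are limited by background.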

Other observations

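The following gene families were chosen after their values were seen and carry no test of the family. Over all genes tested, 1.24% passed higher and 1.91% lower, and no fit without 1 array is given for these families. Trp73, the p53-family relative of Trp63, read 6.50 and 6.68 on the arrays labelled Ovol1 KO and 9.40 and 10.02 on the DKO arrays (difference 3.12, limma adjusted p = 0.00516). Of the 3 subunits of the epithelial sodium channel measured, Scnn1a (-5.05) and Scnn1g (-3.70) fell (limma adjusted p = 0.0259 and 0.00654), both to levels under 6.20 on the DKO arrays. Of 17 Tmprss membrane proteases, 5 fell and none rose, among them Tmprss2 (-3.29), Tmprss13 (-4.77) and Tmprss11e (-5.09). Of 12 Sprr genes 8 fell, and their median difference was -4.71.

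Enzymes that build glycan chains included genes that rose. Of 28 carbohydrate and heparan sulfotransferases, Chst2, Chst11, Chst12 and Hs6st2 rose by 1.19, 2.61, 2.68 and 2.99, Hs3st1 fell by 2.41, and the median was -0.07. Of 6 beta-galactosyltransferases, B4galt1, B4galt5 and B4galt6 rose by 1.12, 2.62 and 2.08. Among 25 imprinted genes, Peg10, Mest, Igf2 and Ndn rose, none fell, and the median was 0.07. Of 9 interferon-inducible Ifi200 genes, Ifi202b (-3.20), Ifi205 (-2.87), Ifi207 (-1.92) and Ifi209 (-2.84) fell.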
